A study of Mus musculus with 14 samples.

Results

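The subject is a set of 150 array probes, of 42006 on the array, whose signal was lower in mouse embryonic stem (ES) cells kept for 48 h with LY294002 and close to the control level after 48 h of retinoic acid (RA). The probes were chosen from the measured values themselves. A probe had to be well above background in the sample channel on all control day 3 and standard day 3 arrays, which 23566 probes were. Its RA 48 h minus control day 3 difference had to lie within 0.3 on the log2 scale, which left 13532 probes, and its control day 3 minus standard day 3 difference within 0.5, which left 8968. The 150 with the largest control day 3 minus LY294002 difference were then taken. All values of the LY294002, RA 48 h, control day 3 and standard day 3 arrays are therefore descriptions of the choice and carry no test. Tests are given for picked RA colonies and for cells long after RA, which the choice did not use.

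LY294002 inhibits phosphoinositide 3-kinase (PI3K), a lipid kinase that relays signals from growth factor receptors, mainly through the kinase Akt. In mouse ES cells this pathway is known to act beside leukaemia inhibitory factor (LIF) in keeping cells undifferentiated and dividing. LY294002 also inhibits other kinases, mTOR among them. RA is a vitamin A derivative that acts through nuclear receptors and drives ES cells to differentiate.

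Every group had 2 arrays. The LY294002 group was MC1-ZE3 cells given the inhibitor for 48 h after 24 h in culture, at 10 nM by the label, a unit that could not be checked here. The RA 48 h group was the same subline given 50 nM RA on the same schedule. Day 4 colonies were picked by hand from MC1-ZE16 cultures in 50 nM RA, and day 7 colonies from MC1 cultures in 50 nM RA. Passage 10 cells were MC1-ZE3 cells that had 7 days of RA and then 10 passages without it. The untreated groups were MC1-ZE3 cells of the treatment experiment, called control day 3, and MC1-ZE3 cells in standard culture, called standard day 3. All cells were male 129 lines in ES medium, with the strain given as 129SvEv-Tac for day 7 colonies and 129/Sv for the others. The labels name LIF in the medium of the LY294002, RA 48 h, control day 3 and both colony groups. For every group but the day 7 colonies the extraction notes speak of pooled picked colonies, also where the culture was a monolayer. Whether both arrays of a group stand for separate cultures is not stated by the labels, and p-values here cover only the spread between arrays, which may be technical.

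On each array the sample was labelled with Cy3 and a common reference with Cy5. The reference was a pool of RNA of 11 mouse cell lines, to which RNA of 129 ES cells was added at 2:1. A level below is the log2 ratio of sample over reference, so 0 is the level of the reference, and a difference is the log2 change between groups. Between 56.1% and 75.1% of probes were well above background in Cy3 on an array, and the ratios of replicate arrays correlated at 0.973 to 0.993 across probes (probes are no independent replicates). The slide of the LY294002 arrays held no other group, although it was scanned on the same day as that of control day 3 and RA 48 h, and the effects of slide and inhibitor cannot be told apart. Each kind of colony also had a slide to itself and came from another subline and another day of culture than passage 10. Day 7 colonies differed from passage 10 in strain label and scan day as well. These differences and RA exposure cannot be told apart there. Fewer cells of a type and less RNA per cell cannot be told apart in such bulk samples. The deposited arrays name probes by number and sequence only, so no member is assigned to a gene here and the label ES could not be checked against marker genes.

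The probes are 60 bases long. The first 4 sequences are shown because they form the overlapping pairs among the members, with the shared bases in capitals, so that each pair reads the same stretch of transcript. Printed as deposited, with no strand claimed, these are:
Z00045122-1: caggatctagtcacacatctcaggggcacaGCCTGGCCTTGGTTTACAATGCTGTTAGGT
Z00006580-1: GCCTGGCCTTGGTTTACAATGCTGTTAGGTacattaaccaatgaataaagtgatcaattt
Z00025190-1: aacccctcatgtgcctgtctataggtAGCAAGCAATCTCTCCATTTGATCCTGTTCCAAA
Z00075594-1: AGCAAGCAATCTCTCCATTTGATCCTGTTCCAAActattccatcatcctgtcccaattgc

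The next sequences belong to the members with the lowest LY294002 values relative to control day 3 on the scale used below (Z00075142-1, Z00024877-1, Z00016225-1), to the member at the head of the ranking (Z00057528-1), and to members with the widest differences among colonies and passage 10 (Z00024306-1, Z00026289-1, Z00074311-1, Z00035357-1, Z00054605-1). They are whole probes with no part marked:
Z00075142-1: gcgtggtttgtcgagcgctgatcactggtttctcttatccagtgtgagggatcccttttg
Z00024877-1: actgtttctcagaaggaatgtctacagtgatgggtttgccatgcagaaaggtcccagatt
Z00016225-1: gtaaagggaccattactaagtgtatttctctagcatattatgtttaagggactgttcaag
Z00057528-1: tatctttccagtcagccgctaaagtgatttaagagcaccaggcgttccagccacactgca
Z00024306-1: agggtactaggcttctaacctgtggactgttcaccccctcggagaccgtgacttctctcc
Z00026289-1: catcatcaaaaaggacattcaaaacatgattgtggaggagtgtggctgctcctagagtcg
Z00074311-1: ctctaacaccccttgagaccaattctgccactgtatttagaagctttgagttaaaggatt
Z00035357-1: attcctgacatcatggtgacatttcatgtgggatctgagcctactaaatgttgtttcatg
Z00054605-1: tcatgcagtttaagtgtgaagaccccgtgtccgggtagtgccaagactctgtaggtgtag

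With LY294002 most members were below the reference, while in control day 3 most were above it. Their median level was -0.71 with LY294002 and 0.34 after RA 48 h, against 0.36 in control day 3 and 0.24 in standard day 3. On both LY294002 arrays 131 members were below the reference and 8 above it, whereas 90 members were above it on both control day 3 arrays. Members that exceeded the reference by 2-fold or more on both arrays numbered 0 with LY294002 (3.39% of tested probes) and 34 after RA 48 h (6.44%). They numbered 34 in control day 3 (7.23%) and 19 in standard day 3 (4.39%). No share of other probes stands beside the counts of 131, 8 and 90. These arrays chose the members, so nothing is read from the levels and counts.

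The LY294002 minus control day 3 difference had a median of -1.19 over the members, with quartiles of -1.51 and -0.69 and a range of -3.14 to -0.05. It was at least 2-fold lower for 87 members and less than 2-fold for 63, where 5.74% of all tested probes were at least 2-fold lower. Both LY294002 arrays were below both control day 3 arrays for 148 members, where this held for 39.0% of tested probes. Against standard day 3 the median was -0.87, with 66 members at least 2-fold lower (3.17% of tested probes) and 150 without overlap (34.2%); the median was -0.50 with log ratios only centred on the median. Against RA 48 h it was -1.17, with 91 members at least 2-fold lower (7.39% of tested probes) and 150 without overlap (41.5%). Nothing is read from these shares, since the same arrays chose the members.

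The members were ranked on the scanner software's own log ratio, centred on each array's median, and the main scale here adds a background correction that shrinks dim spots and an intensity-dependent normalization. On the ranking scale the control day 3 minus LY294002 difference was 4.61 for the first member, Z00057528-1. It was 1.1708, 1.1706 and 1.1695 for the last members taken, Z00002420-1, Z00036661-1 and Z00055225-1. The first probes left out, Z00041147-1, Z00023537-1 and Z00011562-1, had 1.1659, 1.1599 and 1.1559, so the edge of the set is not a step. Applied to the main scale, the same rule shared 69 of its 150 probes with the set. On that scale 139 of the members were within the RA limit and 137 within the standard day 3 limit.

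The signal behind these values differed widely among the members. In Cy3, 23 members were well above background on neither LY294002 array, 16 on 1 array and 111 on both. Of the 8968 candidates, 8945 were well above background on at least 1 LY294002 array and 8920 on both. Of the 31053 tested probes, 28666 and 27306 were. Nothing is read from the members' counts, since the ranking favoured probes with low LY294002 values. The 23 had a median Cy3 signal of 53.0 with LY294002 and 84.0 in control day 3, while the 111 had 158.9 with LY294002 and 606.4 in control day 3. The dim members held 16 of the first 50 ranks. Their median LY294002 minus control day 3 difference was -2.42 on the ranking scale and -0.54 on the main scale. The difference for the 111 was -1.51 on the ranking scale and -1.33 on the main scale, so the 2 scales lay closer where the probe was measured on both sides. For the 23, only a Cy3 value can be given. It is the control day 3 level over the LY294002 level or the array's lowest signal well above background, whichever is higher. This value leaves the reference channel out, is open to dye bias, and exceeded the fold of the ratios for 8 of the 23, for which none is given. For the other 15 it was 1.43-fold at the median. It reached 2-fold for 3 members, Z00057528-1, Z00055591-1 and Z00022475-1. For these 3 the LY294002 level was the higher. Theirs are thus plain ratios to a signal not well above background and no strict bounds. The control day 3 Cy3 signal had a median of 327.2 over the members, against 1183.41 over the 8968 candidates and 308.67 over the tested probes.

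The 2 channels were also taken apart. After quantile normalization of each channel alone, the LY294002 minus control day 3 difference had a median of -1.01 over the members in Cy3. In Cy5, the reference channel, it had a median of -0.04 and a range of -0.56 to 0.12, so against control day 3 most of the difference was in the sample channel. For LY294002 minus standard day 3 the Cy3 difference had a median of -0.90 and ran from -3.43 to 0.69, so not every member was lower in the sample channel. The reference channel was less alike between more distant arrays, and its LY294002 minus standard day 3 difference had a median of -0.13 and ran from -0.72 to 1.56. For day 7 colonies minus passage 10 cells it ran from -0.38 to 0.95, for day 4 colonies minus passage 10 cells from -0.35 to 0.39 and for day 7 minus day 4 colonies from -0.37 to 0.82. What part these reference differences have in the ratios was not tested.

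Among the first 12 members, 6 were well above background on both LY294002 arrays and 6 on neither, and the main-scale differences ran from -3.14 to -0.82. Z00075142-1 had levels of -0.74 and -0.67 with LY294002 and 2.33 and 2.28 after RA 48 h, against 2.47 and 2.39 in control day 3 and 1.93 and 1.98 in standard day 3. Its LY294002 arrays lay far below all the others, a difference from control day 3 of -3.14 (8.80-fold lower). Its Cy3 signal was 104.33 and 95.11 with LY294002, against 1198.80 and 1036.22 in control day 3.

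Z00024877-1 had levels of -1.70 and -1.60 with LY294002 and 1.38 and 1.41 after RA 48 h, against 1.46 and 1.48 in control day 3 and 1.87 and 1.77 in standard day 3. It was thus below the reference with LY294002 alone, and the difference from control day 3 was -3.13. Z00016225-1 was low in every group, at -5.82 and -5.60 with LY294002 and -2.47 and -2.41 after RA 48 h, against -2.76 and -2.78 in control day 3 and -2.92 and -2.82 in standard day 3. The cells had far less of its target than the reference, and with LY294002 less still, by a difference of -2.94.

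For the head of the ranking, Z00057528-1, levels were -0.38 and -0.23 with LY294002 and 1.03 and 1.05 after RA 48 h, against 0.98 and 0.87 in control day 3 and 0.92 and 0.74 in standard day 3. It was not well above background on either LY294002 array, and control day 3 was 2.17-fold higher as a plain Cy3 ratio. The second member, Z00055591-1, had levels of -0.32 and -0.16 with LY294002, against 1.80 and 1.71 in control day 3. It too was not well above background with LY294002, and control day 3 was 3.32-fold higher as a plain Cy3 ratio, the highest of these values. Among the first 12, other members were also not well above background on either LY294002 array. Of these, Z00022475-1 was 2.51-fold higher in control day 3, also a plain Cy3 ratio, and Z00020345-1 is among those given no value. For Z00025481-1 and Z00036275-1 the values were 1.57-fold and 1.63-fold, that of Z00036275-1 again a plain ratio. The rest of the first 12, Z00025366-1, Z00047450-1 and Z00070706-1, had levels of -1.92 and -1.60, -0.79 and -0.65, and -0.85 and -0.74 with LY294002. Their control day 3 levels were 0.47 and 0.44, 1.48 and 1.29, and 1.35 and 1.35, so that no LY294002 array reached a control day 3 array.

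Some members overlapped in sequence. As both probes of each pair were chosen for their LY294002 values, their likeness there is a description. Z00045122-1 and Z00006580-1 share 30 bases, and their LY294002 minus control day 3 differences were -1.36 and -1.25. Z00045122-1 had levels of -0.53 and -0.49 with LY294002, against 0.87 and 0.84 in control day 3. Z00006580-1 had levels of -0.56 and -0.53 with LY294002, against 0.69 and 0.73 in control day 3. The probes of the other pair, Z00025190-1 and Z00075594-1, share 34 bases and had differences of -1.32 and -1.53. Their levels with LY294002 were -0.13 and -0.03 for Z00025190-1 and -0.07 and -0.06 for Z00075594-1, against 1.24 and 1.24 and against 1.48 and 1.44 in control day 3. In both pairs the groups did not overlap with either probe.

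Members also overlapped probes outside the set, which were picked for mention after their values were seen. Z00077617-1 has the same 60 bases as member Z00077646-1, and its LY294002 minus control day 3 difference was -0.62, where the member had -0.79. It was left out because its control day 3 minus standard day 3 difference on the ranking scale was 0.98, while that of Z00077646-1 was 0.11. Neither probe was well above background on both LY294002 arrays. Z00075743-1 shares 34 bases with member Z00043331-1 and had a difference of -0.65, where the member had -0.43; its RA 48 h minus control day 3 difference of -0.58 on the ranking scale kept it out. Membership thus differed between probes that read the same bases.

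In cells 10 passages after RA the median member level was 0.16, against 0.24 in standard day 3 and 0.36 in control day 3. Both untreated groups entered the choice, so the comparison has no test. The passage 10 minus standard day 3 difference had a median of -0.06. Both passage 10 arrays lay below both standard day 3 arrays for 65 members (21.4% of tested probes) and above them for 28 (24.4% of tested probes). Replicates with the same number shared a slide in these groups, and same-numbered arrays deviated together (r = 0.25 over tested probes). Within slides, passage 10 was lower on both for 76 members (29.6% of tested probes) and higher on both for 37 (33.8%), and the median differences were -0.03 on one slide and -0.09 on the other. At least 2-fold lower were 0 members and at least 2-fold higher was 1 (each 0.0515% of tested probes). That member was Z00026289-1, with levels of -2.00 and -2.07 in passage 10 cells, against -3.88 and -3.97 in standard day 3 and -3.81 and -3.71 in control day 3. Its levels with LY294002 were -5.32 and -5.17, the lowest of all groups.

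The picked colonies were compared with passage 10 cells and with each other, in contrasts between groups that the choice did not use. The spread behind their p-values was estimated from all 14 arrays, those of the choice included. Day 4 and day 7 colonies were both set against the same passage 10 arrays, so those results are not independent of each other. Median member levels were 0.16 in day 4 colonies, -0.08 in day 7 colonies and 0.16 in passage 10 cells. Members that exceeded the reference by 2-fold or more on both arrays numbered 29 in day 4 colonies (5.41% of tested probes), 20 in day 7 colonies (4.82%) and 16 in passage 10 cells (4.97%). All 3 groups stood above the LY294002 median of -0.71. That median is low by the choice of the members, so nothing is read from this. Calls below are at a limma adjusted p under 0.05 over the 31053 tested probes, two-sided, and all 150 members were among those probes.

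In day 4 colonies 64 members (42.7%) were higher than in passage 10 cells and 40 (26.7%) lower, where 25.8% of tested probes were higher and 24.4% lower. Among the 8968 candidates 30.0% were higher and 25.6% lower. The share of members that was higher stood above both backgrounds and the share that was lower close to them, while the median difference over the members was 0.06. A call with a change of at least 2-fold was reached by 19 members upward and 4 downward, where 3.97% of tested probes were so called upward and 3.62% downward. With log ratios only centred on the median, 45 members were higher and 25 lower, where 12.6% of tested probes were higher and 14.3% lower.

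The largest rise was that of Z00024306-1, at 2.96 and 3.15 in day 4 colonies and 4.16 and 4.21 in day 7 colonies, against 0.35 and 0.32 in passage 10 cells. Its day 4 minus passage 10 difference was 2.72 (SE 0.08, limma adjusted p = 5.36e-11). Untreated cells were at 1.14 and 1.14 in control day 3 and 0.72 and 0.78 in standard day 3, and the LY294002 arrays at -0.28 and -0.47, so the colonies were above every other group. Z00074297-1 had levels of 0.61 and 0.54 in day 4 colonies, against -1.34 and -1.30 in passage 10 cells, a difference of 1.90 (limma adjusted p = 5.18e-09). Z00012218-1 was at 0.38 and 0.32 in day 4 colonies, against -1.35 and -1.30 in passage 10 cells, and Z00027133-1 at 1.52 and 1.51, against 0.19 and 0.13 in passage 10 cells. For each of these the day 4 arrays lay above all passage 10 arrays, which was a condition for naming them here. The differences of Z00012218-1 and Z00027133-1 were 1.67 and 1.35.

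The largest fall was that of Z00026289-1, whose level was -4.84 and -4.76 in day 4 colonies, against -2.00 and -2.07 in passage 10 cells, a difference of -2.76 (SE 0.09, limma adjusted p = 7.89e-11). As its passage 10 level was itself above that of untreated cells, its day 4 colonies were nearer to standard day 3, at -3.88 and -3.97, than to passage 10. Z00070243-1 was at -3.07 and -2.87 in day 4 colonies, against -1.52 and -1.52 in passage 10 cells (difference -1.45). Z00020318-1, Z00070970-1 and Z00060288-1 had differences of -1.12, -1.03 and -0.90. Day 4 values of Z00020318-1 were -1.94 and -1.88, against -0.71 and -0.89 in passage 10 cells, and its LY294002 values of -2.37 and -2.26 were lower again.

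In day 7 colonies 52 members (34.7%) were higher than in passage 10 cells and 50 (33.3%) lower, where 29.1% of tested probes were higher and 26.6% lower. Among the candidates 29.6% were higher and 24.5% lower. The median difference over the members was -0.04. The balance of higher and lower members depended on the scaling. When log ratios were only centred on the median, 44 were higher and 21 lower, where 24.5% of tested probes were higher and 9.95% lower. In the Cy3 channel alone 35 were higher and 58 lower, where 26.1% were higher and 28.6% lower. Calls of at least 2-fold numbered 10 upward (5.97% of tested probes) and 8 downward (3.57%).

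Z00024306-1 again rose most, with a day 7 minus passage 10 difference of 3.86 (14.5-fold, SE 0.08, limma adjusted p = 1.88e-12). Its Cy5 reference signal was also higher, at 2619.29 and 2604.70 on the day 7 arrays, against 1093.73 and 914.93 on those of passage 10. Its Cy3 signal was 29853.79 and 27998.84, against 699.44 and 599.98. Z00074311-1 was at 0.30 and 0.11 in day 7 colonies, against -1.66 and -1.29 in passage 10 cells, a difference of 1.68 (SE 0.13, limma adjusted p = 1.73e-07). Z00005338-1 had 1.99 and 2.03 in day 7 colonies, against 0.40 and 0.38 in passage 10 cells, and Z00075356-1 had 1.79 and 1.82, against 0.34 and 0.40 in passage 10 cells. In all of these the day 7 arrays stood clear of the passage 10 arrays, as naming them required. Z00005338-1 and Z00075356-1 had differences of 1.62 and 1.43. For Z00005338-1 the reference channel differed too, with a Cy5 signal of 217.75 and 114.88 on the day 7 arrays, against 78.2 and 58.53 on those of passage 10. The Cy3 signal of Z00005338-1 was 581.78 and 312.58 on the day 7 arrays. Z00036661-1, one of the members at the edge of the set, had 1.58 and 1.91 in day 7 colonies, against 0.24 and 0.42 in passage 10 cells (difference 1.41).

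Z00026289-1 fell again in day 7 colonies, at -4.43 and -4.21 against -2.00 and -2.07 in passage 10 cells (difference -2.28, limma adjusted p = 2.53e-10). Z00054605-1 was at -0.56 and -0.58 in day 7 colonies, against 1.091 and 1.102 in passage 10 cells, a difference of -1.67 (SE 0.06, limma adjusted p = 1.62e-10). The LY294002 values of Z00054605-1, at -0.88 and -0.81, were the only ones below those of its day 7 colonies. Z00070970-1 had 0.30 and 0.48 in day 7 colonies, against 2.00 and 1.93 in passage 10 cells (difference -1.57), and Z00020318-1 a difference of -1.46.

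Day 7 colonies also differed from day 4 colonies. In day 7 colonies 46 members (30.7%) were higher than in day 4 colonies and 71 (47.3%) lower, where 27.4% of tested probes were higher and 25.4% lower. Among the candidates 29.2% were higher and 28.3% lower, so the lower share of the members stood above both backgrounds. The median difference over the members was -0.18, and 8 members were called at least 2-fold higher (4.36% of tested probes) and 19 at least 2-fold lower (2.61%). With log ratios only centred on the median, 38 were higher and 37 lower, where 25.04% of tested probes were higher and 8.12% lower.

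The widest differences were in Z00035357-1 and Z00054605-1. Z00035357-1 was at -2.74 and -2.62 in day 7 colonies, against 0.12 and 0.29 in day 4 colonies, with passage 10 cells at -1.096 and -1.064 in between. The difference was -2.88 (7.37-fold lower, SE 0.08, limma adjusted p = 5.73e-11). Its LY294002 values of -3.25 and -3.12 were lower still. Z00054605-1 was at -0.56 and -0.58 in day 7 colonies, against 2.20 and 2.25 in day 4 colonies, a difference of -2.80 (SE 0.06, limma adjusted p = 1.15e-11). Z00024877-1, already described with LY294002, had 0.62 and 1.08 in day 7 colonies, against 3.03 and 3.01 in day 4 colonies (difference -2.17). Z00025366-1 and Z00074260-1 had differences of -2.06 and -1.83. Day 7 arrays below all day 4 arrays were a condition for naming the members here.

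Higher in day 7 colonies was, first, Z00074311-1, at 0.30 and 0.11 against -2.33 and -2.33 in day 4 colonies, a difference of 2.53 (SE 0.13, limma adjusted p = 6.58e-09). Its day 4 level was close to its LY294002 level of -2.68 and -2.31. Z00075142-1, the member lowest with LY294002 relative to control day 3, was at 2.16 and 2.23 in day 7 colonies, against 0.64 and 0.59 in day 4 colonies (difference 1.58, limma adjusted p = 1.00e-09). Its passage 10 level, 1.48 and 1.43, lay between the kinds of colony, and all were above its LY294002 values of -0.74 and -0.67. Z00074552-1, Z00055591-1 and Z00036275-1 were higher by 1.55, 1.26 and 1.24. On both day 4 arrays Z00036275-1 was not well above background, so its difference is not measured on both sides. Its Cy5 signal was 163.82 and 151.56 on the day 7 arrays, against 76.90 and 71.57 on the day 4 arrays.

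On the main scale the probes of each overlapping pair moved in the same direction in the colonies too, though not always with the same call. Z00025190-1 had 2.04 and 1.91 in day 4 colonies, against 1.102 and 1.098 in passage 10 cells, and Z00075594-1 had 2.20 and 2.08, against 1.15 and 1.04 in passage 10 cells. The day 4 arrays lay above those of passage 10 with both probes, and the differences were 0.88 and 1.05. Between day 7 and day 4 colonies the pair differed by -0.75 and -0.76. For day 7 colonies minus passage 10 the calls split. Z00025190-1 had a difference of 0.12 and was not called (limma adjusted p = 0.142). Z00075594-1 had 0.29 and was called higher (limma adjusted p = 0.00271). Z00045122-1 was at 0.09 and 0.17 in day 4 colonies and -0.28 and 0.04 in day 7 colonies, against 0.28 and 0.23 in passage 10 cells. Z00006580-1 was at 0.10 and 0.10 in day 4 colonies and -0.42 and -0.09 in day 7 colonies, against 0.25 and 0.16 in passage 10 cells. In day 7 colonies both were called lower than in passage 10 cells, by -0.37 and -0.46 (limma adjusted p = 0.00267 and 0.000585), and neither was past the threshold with log ratios only centred on the median (-0.15 and -0.22).

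The members' sequences were close to the others in composition. The GC content had a median of 45.0% in the members, in the candidates and in all tested probes. The letters AATAAA, the common polyadenylation signal, stood in 15 members (10.0%) as printed, against 7.18% of candidates and 7.38% of tested probes, and their reverse complement in 2 members (1.33%), against 3.09% of candidates. The letters ATTTA, the core of AU-rich elements, stood in 8 members (5.33%) as printed, against 7.24% of candidates, and their reverse complement in 15 (10.0%), against 8.35% of candidates. These are matches of letters within the probes and were not tested. Across 60 bases, 0 members matched a RefSeq promoter window or miRNA hairpin. No share of other probes stands beside this count, so nothing is read from it.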

How the data were processed

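RNA of 7 groups of 2 samples was measured on 2-colour Agilent arrays, with Cy3 for the sample and Cy5 for the reference on all 14 arrays. The deposited intensity values (mean signal and median background) and log10 ratios (Cy5 over Cy3) are, per the file headers, output of Agilent Feature Extraction 9.5.1.1. The authors' deposited value table holds log10 values of 25030 probes, of which 19083 were tested and 120 are members; its columns have medians of 2.24 to 2.32 and followed the scanner files' log10 ratio with its sign turned (r from 0.99927 to 0.99997, 14654 probes), so the direction is sample over reference, and its centring is unknown.

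The members were ranked on minus the log10 ratio divided by 0.30103, centred on each array's median. All other values are log2 ratios from the deposited intensities after normexp (offset 50) and loess in limma 3.58.1 (R 4.3.3, statmod 1.5.0). Control spots had weight 0 and were left out with the 1 to 24 outlier spots per array, spots of 1 probe were averaged, and saturated Cy3 spots numbered 0. A probe was tested if it was well above background in Cy3 on both arrays of a group (31053 probes, all 150 members included). The fit held all 14 arrays (residual degrees of freedom 7, prior 5.33), and 3 contrasts were tested with eBayes and Benjamini-Hochberg adjustment at 0.05 over the tested probes. The number of arrays limits the precision.

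On simulated log ratios the limma fit recovered 70.1% of changes of 0.5, 100% of 1 and 100% of 2 (log2) for day 4 colonies minus passage 10, run on 31053 probes, with 8 false calls. The noise was normal and independent between arrays, so background correction, loess and slide effects were not covered. Changes were given to 67, 67 and 66 probes in each run, far fewer than were called in the data. The shares were 67.2%, 95.5% and 100% with 10 false calls for day 7 colonies minus passage 10 and 68.7%, 97.0% and 100% with 15 false calls for day 7 minus day 4 colonies, also on 31053 probes.

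Named members are the first 12 by rank, the 3 on each side of the limit, up to 5 highest and 5 lowest called members of each tested contrast without overlap between groups, and members that share 20 or more bases. The members, lists and tests were chosen with earlier results of these data known. None of 277 listed gene symbols occurs among the probe names, so gene lists were not used. Alternatives covered background correction, normalization, single channels, filters, slide, scan day and each array left out.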

Additional observations from a re-analysis of the deposited data

Results flagged for a closer look

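Opposite calls against passage 10 in the kinds of colony were found for 29 members (19.3%), 18 higher on day 4 and lower on day 7 and 11 the other way, where 6.25% of tested probes had opposite calls (2.91% and 3.34%). Both comparisons use the passage 10 arrays, and nothing is read from the share. For all 29 the day 7 minus day 4 difference was called by limma as well. Opposite calls against the same arrays nearly fix this in advance, so it adds no support. Of the 29, 12 are named here, largely for their wide differences. Higher than passage 10 on day 4 and lower on day 7 were 7 of the 12 named. Their day 7 minus day 4 differences were -1.19 for Z00057528-1, -1.07 for Z00022475-1, -2.06 for Z00025366-1, -2.17 for Z00024877-1, -1.83 for Z00074260-1, -2.88 for Z00035357-1 and -2.80 for Z00054605-1. Lower on day 4 and higher on day 7 were the other members, with differences of 1.26 for Z00055591-1, 1.58 for Z00075142-1, 1.24 for Z00036275-1, 2.53 for Z00074311-1 and 1.55 for Z00074552-1. Of the first 12 members by rank 7 are among them. Z00057528-1 was not well above background on either day 7 array and Z00036275-1 on neither day 4 array, so their differences are not measured on both sides. The day 7 minus passage 10 difference of Z00036275-1 was 0.07 and that of Z00055591-1 0.48 with Agilent's processed signals, that of Z00055591-1 was 0.13 in Cy3 alone, and those of Z00022475-1 and Z00025366-1 were -0.17 and -0.26 with median centring, all past no threshold. The kinds of colony differ in subline, strain label, slide and scan day as well as in day of culture, and these cannot be told apart. No group had enough arrays for a search for single outlying arrays.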

How the results depend on the processing

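Centring log ratios on the median without loess moved 3 counts of lower members by over 1.5 times, to 25 for day 4 colonies minus passage 10, 21 for day 7 colonies minus passage 10 and 37 for day 7 minus day 4 colonies; the cause was not tested. The median over the members of LY294002 minus control day 3 was -1.58 with Agilent's processed signals, -0.95 with median centring, -1.01 in Cy3 alone and -1.53 in the authors' value table. For LY294002 minus standard day 3 it was -1.58, -0.50 and -1.53 with processed signals, median centring and the value table. For LY294002 minus RA 48 h it was -1.63, -0.84, -0.97 and -1.58 in the order of the first comparison. With median centring the median of all tested probes was 0.12 for LY294002 minus control day 3 and 0.20 for LY294002 minus standard day 3, and 0.0039 and 0.0106 with loess. With processed signals the median of passage 10 minus standard day 3 was -0.14. The rule shared 69 of its probes with the set on normexp and loess values and 55 on normexp values centred on the median. Named values changed sign for Z00070706-1 (-0.28) and Z00075594-1 (-0.0321) in day 7 colonies minus passage 10 in Cy3 alone. In day 7 minus day 4 colonies, Z00005338-1 turned to -0.34 with processed signals and the value table, and Z00045122-1 to 0.0755 with median centring. Of the other values of named members, 1322 kept direction and side of the threshold, 38 lost the call and 9 gained it.

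Leaving out 1 array at a time kept every count of called members within 1.5 times. Numbers shared by replicates did not pair the samples of the tested contrasts (r of deviations -0.05, -0.06 and 0.11), and the replicate block lost 3, 1 and 1 member calls and gained 0, 2 and 0 in the day 4, day 7 and day 7 minus day 4 contrasts. The correlation was -0.034 within slides and 0.030 within scan days. With LY294002, 23 members were well above background on neither array.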
